A study of Mus musculus with 8 samples.

Results

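Interferon-stimulated genes, the genes that cells switch on in answer to interferon, were followed across mouse embryonic fibroblasts, induced hepatocyte-like lines and primary hepatocytes. The members are 44 genes taken from a list of known targets of type I and type II interferon. Of these, 39 had a probe set that carries 1 gene symbol, among 17097 genes measured in that way, and Isg15, Ifi44, Bst2, Tap1 and Tap2 had none. The 39 measured members fall into 6 role classes. These are 18 of 21 listed type I effectors, 3 sensors of viral nucleic acid, 4 transcription factors, 8 GTPases induced by interferon gamma, 2 chemokines, and 4 of 6 listed genes of antigen processing.

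The study set induced hepatocyte-like (iHep) lines, made by adding liver transcription factors to fibroblasts, beside fibroblasts and primary hepatocytes. Total RNA from 8 samples was hybridised to Affymetrix perfect-match expression arrays, 1 array per sample. The fibroblast group (MEF) had 2 arrays, MEF 1 and MEF 2, of primary fibroblasts from C57/B6 embryos at embryonic day 13.5. For MEF 1 the labels add that the head and internal organs had been removed, and the medium of the fibroblasts is not given in the sources used here. The iHep group had 3 arrays, each of 1 line at passage 10 derived from fibroblasts by retroviral transduction, so the line and the factor set cannot be told apart. The factors of line 4a3 were Hnf4a and Foxa3. In 4a3CK these were joined by c-Myc and Klf4. In 4a1CK, Foxa1 took the place of Foxa3 beside Hnf4a, c-Myc and Klf4. The strain of the lines is not given in the sources used here. The primary hepatocyte group (PH) had 3 arrays, PH 1, PH 2 and PH 3, of cells perfused with collagenase out of the livers of male C57/B6 mice aged 8 to 10 weeks. PH 3 is the array whose label carries no number. The lines and the hepatocytes were grown in the same hepatocyte medium, which contains 0.1 µM dexamethasone, a glucocorticoid. No sample was treated with interferon according to the labels.

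Type I interferons bind the receptor of Ifnar1 and Ifnar2, and the kinases Jak1 and Tyk2 then activate a complex that holds STAT2 and IRF9 and binds the interferon-stimulated response element in the promoters of antiviral genes. Interferon gamma signals through Ifngr1 and Ifngr2 to the gamma-activated site, and through the induced factor IRF1 it switches on GTPases, chemokines and the immunoproteasome. Hepatocytes and fibroblasts both answer to interferons, and low activity of the pathway can keep some of these genes on in cells that were not treated.

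Values are log2 signals, so a difference of 1 is a 2-fold change. The median signal of an array was between 4.23 and 4.45 on 7 arrays and was 5.06 on PH 3, and the median of 23 control probe sets without a mouse target was 3.53 on PH 3 against 2.83 to 3.06 on the other 7 arrays. MEF 2, the 3 lines and PH 3 form 1 set by order of submission, and MEF 1, PH 1 and PH 2 form a second, later set. The comparisons of the members between groups are therefore also given between arrays of 1 set. MEF 1 and MEF 2 lie in different sets, so they have no such comparison. Calls of genes outside the members are given over all arrays only. The marker lists bore out the labelled cell types only in part for the lines. The mean log2 signal of 10 hepatocyte markers was 9.46 to 9.76 in PH, 7.28 in 4a3, 6.08 in 4a3CK, 4.76 in 4a1CK and 3.95 to 4.03 in MEF. Fibroblast markers averaged 9.21 and 7.88 in MEF, 3.57 to 3.98 in the lines and 4.31 to 4.38 in PH. Macrophage markers averaged 4.93 in MEF 1, 5.73 in MEF 2, 4.20 to 4.28 in the lines and 4.44 to 5.05 in PH. The 8 measured lymphocyte markers averaged 3.83 to 4.52 on all arrays.

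Promoters of some members carry matches to the sequences through which the pathway acts. Shown are 8 with a match to the response element, because the measured patterns of their genes are followed below. The first 3 belong to the immunity-related GTPases Tgtp1, Igtp and Irgm2 and hold a gamma-activated site just before a response element. The next 3 belong to the GTPases Irgm1, Gbp2 and Gbp3, and the last pair to the antiviral effectors Ifit1 and Ifit3. Capitals mark each match to the core of the response element (GAAA, any 2 bases, GAAA, or its complement TTTCNNTTTC) and, where present, to the gamma-activated site (TTCNNNGAA, which reads the same on both strands). Sequences run 5′ to 3′ on the strand of the gene and come from RefSeq, build GRCm38.p6.
Tgtp1 (chr11:48992289-48992359, minus strand): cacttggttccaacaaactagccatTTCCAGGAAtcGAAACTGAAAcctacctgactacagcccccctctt
Igtp (chr11:58199486-58199555, plus strand): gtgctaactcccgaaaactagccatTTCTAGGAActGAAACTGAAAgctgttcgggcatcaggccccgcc
Irgm2 (chr11:58214877-58214947, plus strand): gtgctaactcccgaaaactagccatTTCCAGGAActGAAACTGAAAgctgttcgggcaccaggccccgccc
Irgm1 (chr11:48871421-48871475, minus strand): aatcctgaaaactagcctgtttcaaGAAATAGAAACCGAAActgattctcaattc
Gbp2 (chr3:142620579-142620638, plus strand): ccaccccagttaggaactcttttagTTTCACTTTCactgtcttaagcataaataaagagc
Gbp3 (chr3:142559974-142560039, plus strand): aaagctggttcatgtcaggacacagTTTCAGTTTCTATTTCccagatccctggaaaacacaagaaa
Ifit1 (chr19:34640760-34640838, plus strand): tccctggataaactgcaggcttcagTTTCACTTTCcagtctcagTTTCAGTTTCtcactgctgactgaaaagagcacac
Ifit3 (chr19:34583348-34583441, plus strand): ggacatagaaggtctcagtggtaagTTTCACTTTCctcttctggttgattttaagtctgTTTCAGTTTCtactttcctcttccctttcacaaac

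In the stretch from 250 bases before to 50 bases after the start of transcription, 34 of the 44 listed members had a sequence in the RefSeq table. The response element core was found in 15 of these 34 members (44.1%) and in 3.99% of 27025 genes. The gamma-activated site was found in 8 members (23.5%) and in 9.55% of all genes. Both motifs were found in 4 members (11.8%), Bst2, Tgtp1, Igtp and Irgm2, and in 0.614% of all genes, and only in Bst2 of these 4 did they overlap. Among the 7 GTPases with a sequence, 6 held the response element core and 3 held the gamma-activated site. In Tgtp1, Igtp and Irgm2 the gamma-activated site began 11 bases before the response element, a spacing found in 5 genes of the whole table. A match is a description of the letters, and the absence of a match says nothing on binding of the factors.

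**Figure D1:**
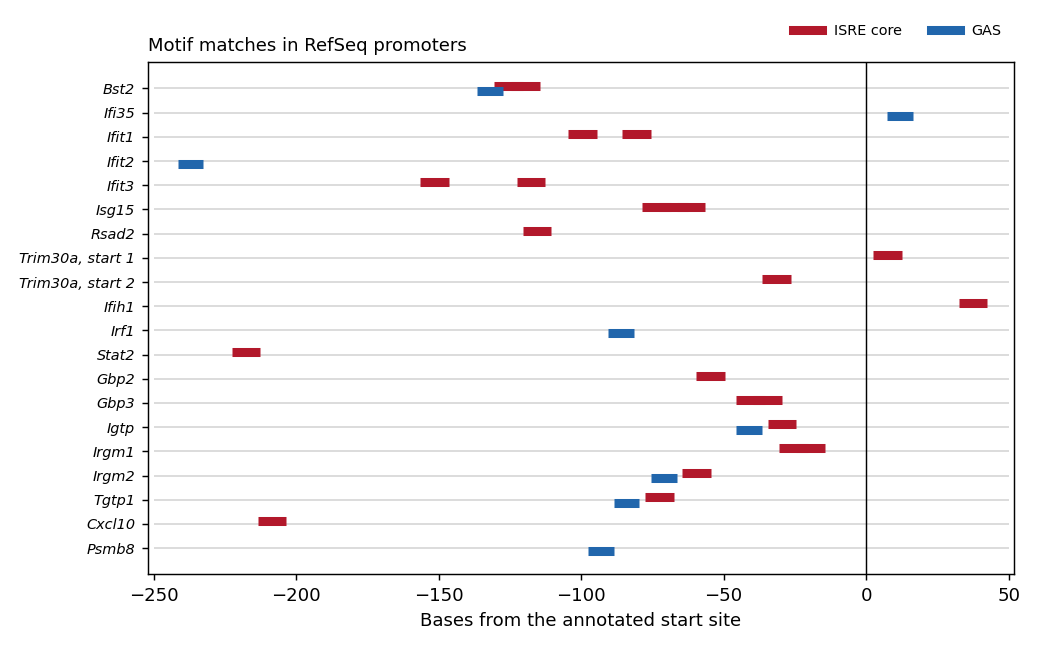
Positions of the 2 motifs (horizontal axis, bases from the start of transcription) in the promoters of the members that hold at least 1 of them (vertical axis, 1 line per start site). Most matches lie before the start, and in Tgtp1, Igtp and Irgm2 the gamma-activated site begins 11 bases before the response element begins.

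The lines had the lowest levels of these genes. Against MEF, 21 of the 39 members fell in the lines and 0 rose, by limma's moderated test over all genes with an adjusted p under 0.05 and a difference of at least 1. Over all 17097 genes, 4.47% were lower by this rule and 1.98% were higher. The median difference of the members was -3.12, against 0.16 over all genes. Against PH, 18 members fell in the lines and 0 rose, where 5.64% of all genes were lower and 1.49% were higher, and the median difference of the members was -2.40 against -0.09. At an unadjusted p under 0.05, 33 members were lower and 0 higher against MEF, and 26 were lower and 0 higher against PH. In whole-culture RNA, fewer cells that express a gene and less RNA of it per cell cannot be told apart. Nothing in the sources shows that arrays of a group came from separate animals or cultures, so p-values measure the spread between arrays, which may be technical. Precision is limited by how few arrays there are.

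Between PH and MEF the members had no common direction. In PH, Oasl2 and Ifit3 fell against MEF and 0 members rose, where 2.47% of all genes were lower and 3.37% were higher by the same rule. The median difference of the members was -0.36 against 0.25 over all genes. At an unadjusted p under 0.05, 6 members were lower in PH and 0 were higher. The comparisons share arrays, so their values are given side by side and are not independent of each other.

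The arrays of the lines lay below every array of the other group for most members. All 3 lines were below both MEF arrays for 32 of the 39 members, against 18.4% of all genes, and below all 3 PH arrays for 35 members, against 21.3% of all genes. All PH arrays were below both MEF arrays for 4 members, against 7.90% of all genes. In the lines 26 of the 39 members (66.7%) were below the median of the array on each of the 3 arrays, against 45.3% of all genes. In PH this held for 2 members and in MEF for 0. At such levels a weak signal and none are hard to separate.

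**Figure D2:**
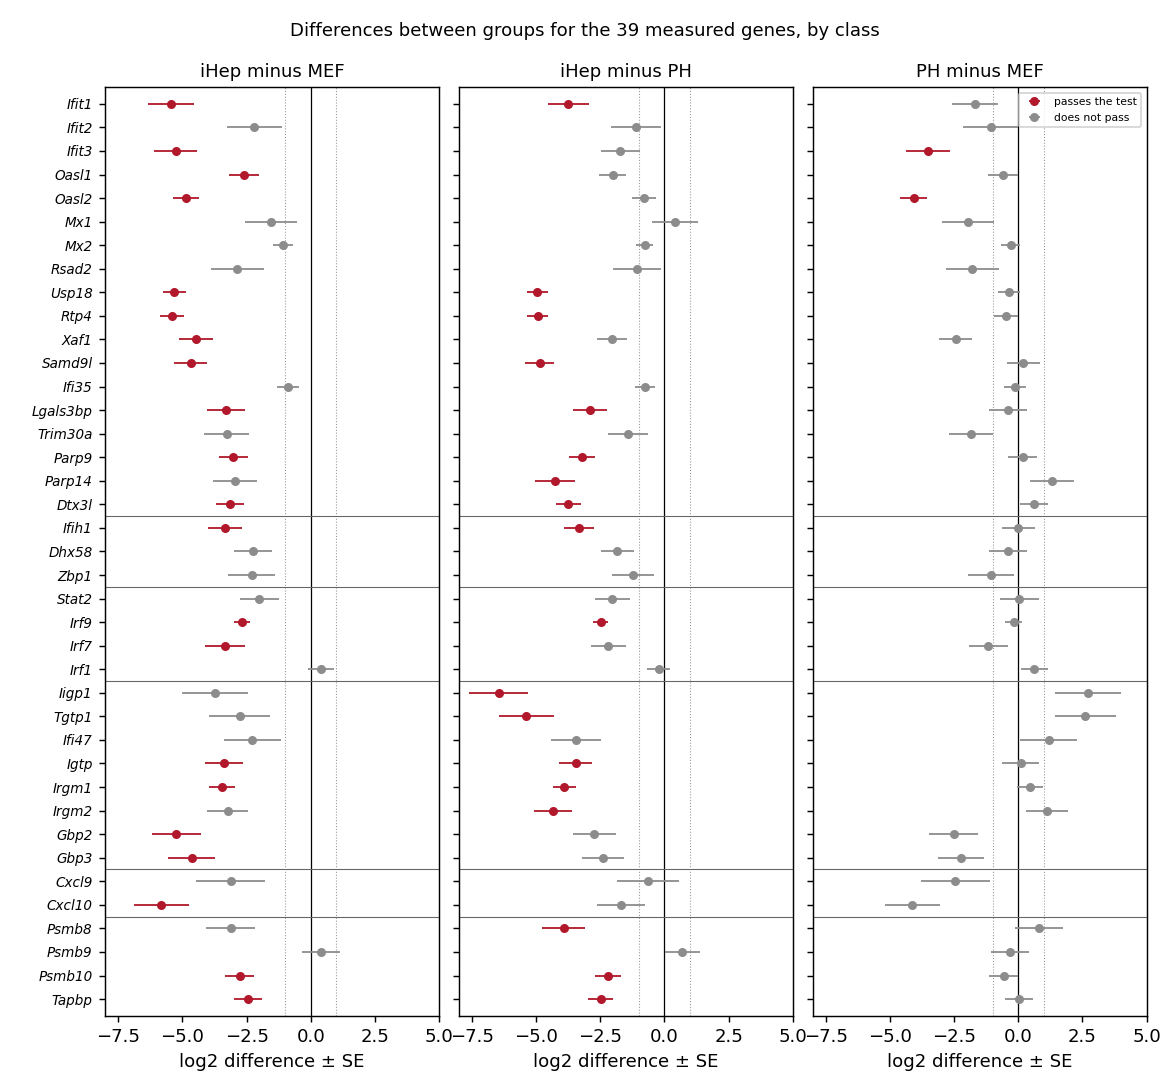
Differences between groups (horizontal axes, log2) for each of the 39 measured members (vertical axis, grouped by role class), with the standard error of the limma fit and in red those that passed the test. The lines lie below MEF and PH for nearly all members. The difference of PH from MEF is positive for 15 members and negative for 24, and only Oasl2 and Ifit3 passed, both lower in PH.

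Leaving out single arrays moved these counts. Without MEF 1, 12 members were lower in the lines than in MEF (2.19% of all genes), and without MEF 2 there were 35 (2.82%). Without 4a3 the count was also 12 (2.49%). Against PH, the count was 9 without PH 1 (2.90%), 9 without PH 2 (3.08%) and 11 without 4a3 (2.84%). Of the 21 calls against MEF, 11 held whichever array was left out, and so did 8 of the 18 calls against PH. The calls of Oasl2, Usp18, Rtp4, Samd9l, Irf9 and Irgm1 against MEF held under every alternative in which they were tested, and so did those of Usp18, Rtp4, Samd9l, Parp9, Dtx3l, Irf9, Irgm1 and Irgm2 against PH. Oasl2 and Irf9 were not tested in the alternative without probe sets that can bind several transcripts. With the order of submission as a block, 11 members were lower in the lines than in PH, and 6 were called between PH and MEF.

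Within the first set of arrays the lines were lower too. Their mean was at least 1 below MEF 2 for 25 members, where 8.91% of all genes were, and at least 1 above it for Irf1 (by 1.27) and Psmb9 (by 1.74). The median difference was -1.58 against 0.15 over all genes. Their mean was at least 1 below PH 3 for 32 members and above it by as much for 0, with a median of -2.10 against -0.57 over all genes, of which 21.3% were lower by 1 or more. These values compare single arrays and have no test.

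The 2 MEF arrays differed more in the members than in most other genes. All 39 members were higher in MEF 1 than in MEF 2, and 38 of them by at least 1, where 3.56% of all genes were higher by that much and 2.68% were lower. The median difference was 2.70 against -0.02 over all genes, and the range ran from 0.23 for Irf9 to 5.94 for Cxcl9. The 25 members of the type I classes had a median of 2.40, and the 14 others had a median of 3.80. Of the 100 genes with the largest excess in MEF 1, 22 were members. The gap was not particular to the members. Saa3 had the largest excess of all genes (8.34), and Steap4 (6.25), Cxcl2 (4.89) and Cxcl5 (4.81) also had wide ones. Saa1 (-0.02) and Saa2 (-0.07) had none. These genes outside the members were named after their values were seen. With 1 array a side the difference has no replicate check. MEF 1 belongs to the later set and MEF 2 to the earlier set, so sample and set cannot be told apart.

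Other markers moved between the same arrays. Of 10 fibroblast markers, 7 were higher in MEF 1 by at least 1 and 0 were lower. Of 14 macrophage markers, 1 was higher and 5 were lower in MEF 1 by that much. C1qa, a complement subunit made by macrophages, had a log2 signal of 3.92 in MEF 1 and 6.77 in MEF 2, and Tyrobp, a signalling adaptor of myeloid cells, had 4.20 and 6.68. Of 6 epithelial markers, 3 were lower in MEF 1 by at least 1 and 0 were higher, with a list mean of 4.64 in MEF 1 and 5.50 in MEF 2. The lymphocyte and endothelial lists had 0 markers that differed by 1 or more. The part of these markers in the result was not tested. The type I interferon gene Ifnb1 lay between 3.81 and 4.22 and Ifng between 3.37 and 4.09 on all 8 arrays.

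Where PH stood therefore depended on the MEF array. Against MEF 1 alone, the mean of PH was lower by at least 1 for 29 members and higher for 0, where 5.78% of all genes were lower and 9.04% higher, and the median was -1.31 against 0.27 over all genes. Against MEF 2 alone, it was higher by at least 1 for 17 members and lower for 4, where 8.89% of all genes were higher and 5.40% lower, and the median was 0.56 against 0.24 over all genes. Within the second set, the mean of PH 1 and PH 2 was at least 1 below MEF 1 for 27 members, where 7.30% of all genes were, and 0 were above it by as much. Within the first set, PH 3 was at least 1 above MEF 2 for 15 members and below it for 6, where 29.7% of all genes were above and 3.85% below. The median difference was 0.76 against 0.70 over all genes. PH 3 also has a higher median signal, and the part of this in the counts was not tested.

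Tests without 1 MEF array moved the same way. In the fit without MEF 1, 6 members rose in PH against MEF 2 (1.71% of all genes) and 1 fell, Oasl2 (1.66%). The 6 were the GTPases Iigp1, Tgtp1, Ifi47 and Irgm2, the ADP-ribosyltransferase Parp14 and the immunoproteasome subunit Psmb8. Without MEF 2, 10 members fell in PH against MEF 1 (2.02% of all genes). They were Cxcl9, Cxcl10, Gbp2, Gbp3, Ifit3, Mx1, Oasl2, Rsad2, Trim30a and Zbp1.

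**Figure D3:**
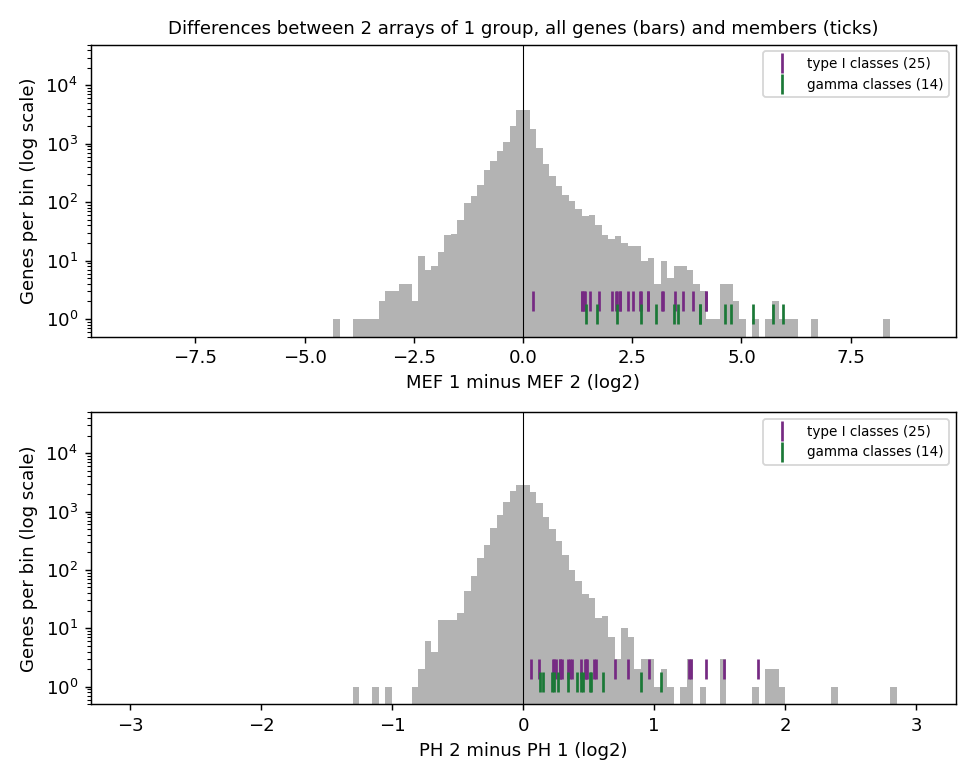
Differences between 2 arrays of 1 group (horizontal axis, log2), MEF 1 minus MEF 2 above and PH 2 minus PH 1 in the lower panel, as the number of genes per bin for all 17097 genes (grey bars, log scale) with ticks for the 25 members of the type I classes and the 14 others. Every tick lies to the right of 0 in both panels, and the differences between the MEF arrays are larger.

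The type I effectors include proteins that block viral RNA, proteins or particles, beside proteins with other roles, such as Usp18 and Rtp4. Of the 18 measured, 11 fell in the lines against MEF (median -3.20) and 8 against PH (median -2.03), and 2 fell in PH against MEF (median -0.52). The class mean was 9.33 and 6.82 in MEF, 4.41 to 4.82 in the lines and 6.75 to 7.37 in PH.

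Usp18, a protease that removes ISG15 from proteins and dampens the type I receptor, had a log2 signal of 10.23 and 8.70 in MEF, 4.42 in 4a3, 4.02 in 4a3CK, 4.01 in 4a1CK, and 8.87, 9.57 and 8.86 in PH. The lines were far below both other groups, which overlapped. The difference was -5.31 ± 0.44 (SE) against MEF (adjusted p = 0.000381, limma) and -4.95 ± 0.40 against PH (adjusted p = 0.000243). In PH against MEF it was -0.36 ± 0.44 (adjusted p = 0.684).

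Rtp4, an interferon-induced chaperone of receptors, had 10.35 and 9.01 in MEF, 4.53, 4.08 and 4.19 in 4a3, 4a3CK and 4a1CK, and 9.37, 9.73 and 8.52 in PH. As for Usp18, only the lines stood apart. The lines were lower by -5.41 ± 0.46 against MEF (adjusted p = 0.000419, limma) and by -4.94 ± 0.41 against PH (adjusted p = 0.000316). Samd9l, an antiviral inhibitor of translation, had 9.82 and 7.31 in MEF, 3.64, 4.29 and 3.76 in the lines, and 8.37, 8.65 and 9.25 in PH. The PH arrays lay between the MEF arrays. The lines differed by -4.67 ± 0.64 from MEF (adjusted p = 0.00424, limma) and by -4.86 ± 0.57 from PH (adjusted p = 0.00196).

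The Ifit genes encode proteins that bind viral RNA ends. Ifit1 had 10.55 and 7.70 in MEF, 3.70, 3.69 and 3.69 in the lines, and 7.15, 8.94 and 6.21 in PH. The 3 lines were alike and at the bottom of the scale, and PH 2 was the highest of the PH arrays. The lines were lower by -5.43 ± 0.90 against MEF (adjusted p = 0.0110, limma) and by -3.74 ± 0.81 against PH (adjusted p = 0.0278). Without MEF 1 the difference from MEF was -4.00 (adjusted p = 0.0614), and the call against PH was lost without 4a3, 4a1CK, PH 1 or PH 2 (-3.88 to -2.99). Ifit3 had 10.81 and 7.63 in MEF, 3.94, 4.01 and 3.94 in the lines, and 5.38, 6.78 and 4.93 in PH. Here the 3 groups did not overlap, with PH in the middle.

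For Ifit3 the lines differed by -5.26 ± 0.85 from MEF (adjusted p = 0.00938, limma) and by -1.73 ± 0.76 from PH (adjusted p = 0.242). PH fell against MEF by -3.52 ± 0.85 (adjusted p = 0.0484, limma), a call that did not pass without MEF 1 (-1.93), 4a3, 4a1CK, PH 1 (-3.37) or PH 3 (-3.14). Ifit2 differed from its neighbours on chromosome 19. It had 9.40 and 6.20 in MEF, 3.74 in 4a3 but 6.19 in 4a3CK and 6.90 in 4a1CK, and 6.21, 6.45 and 7.48 in PH. Those last lines reached the level of MEF 2 and PH, and the difference of the group from MEF was -2.19 ± 1.08 (adjusted p = 0.297, limma). RefSeq places 0 protein-coding genes between Ifit2 and Ifit3, and 3 between Ifit3 and Ifit1.

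Oasl2 and Oasl1 encode relatives of the oligoadenylate synthetases and are neighbours on chromosome 5. Oasl2 had 9.04 and 6.90 in MEF, 3.16, 3.03 and 3.13 in the lines, and 3.85, 4.08 and 3.77 in PH. Only MEF was high. PH fell against MEF by -4.07 ± 0.52 (adjusted p = 0.00231, limma) and the lines by -4.86 ± 0.52 (adjusted p = 0.00117), and both calls held without any single array. Oasl1 had 7.89 and 5.85 in MEF, 4.25, 4.31 and 4.25 in the lines, and 5.82, 7.10 and 5.97 in PH. Its PH arrays overlapped MEF, and the difference of PH from MEF was -0.58 ± 0.58 (adjusted p = 0.649, limma). Its call in the lines against MEF (-2.60 ± 0.58, adjusted p = 0.0349) was lost without MEF 1 (-1.58), 4a3, 4a1CK or PH 1.

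Parp14, Dtx3l and Parp9 lie side by side on chromosome 16, and Parp9 and Dtx3l act as a complex of an ADP-ribosyltransferase and a ubiquitin ligase. In PH the 3 genes had 7.75 to 9.01, in MEF 1 8.62 to 9.35, in MEF 2 4.96 to 7.12 and in the lines 3.70 to 5.68. All 3 fell in the lines against PH, by -4.26 ± 0.77 for Parp14 (adjusted p = 0.0132, limma), -3.75 ± 0.48 for Dtx3l (adjusted p = 0.0029) and -3.20 ± 0.51 for Parp9 (adjusted p = 0.00809). Every PH array was at least 1 above MEF 2 for these 3 genes. The call of Parp14 was lost without PH 1 (-4.31, adjusted p = 0.0501) or PH 2 (-4.04, adjusted p = 0.0545). Against MEF, Dtx3l and Parp9 fell, by -3.14 ± 0.54 (adjusted p = 0.0124) and -3.02 ± 0.57 (adjusted p = 0.0186), and the call of Parp9 was lost without MEF 1 (-1.91) or 4a3 (-2.85).

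Rsad2, also called viperin, an enzyme that makes a chain-ending nucleotide, had 9.75 and 5.55 in MEF, 4.83, 4.82 and 4.73 in the lines, and 4.86, 6.39 and 6.33 in PH. Only MEF 1 was high. Mx1, a dynamin-like antiviral GTPase whose gene carries a large deletion in C57BL/6-type strains, had 7.28 in MEF 1, 3.09 in MEF 2, 3.22, 4.44 and 3.23 in the lines, and 3.07, 3.13 and 3.46 in PH. Outside MEF 1, the array of 4a3CK was the highest. Neither gene passed the test in any of the 3 comparisons.

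Xaf1, an interferon-induced antagonist of an inhibitor of apoptosis, had 10.16 and 8.75 in MEF, 4.98, 5.10 and 4.86 in the lines, and 6.21, 6.46 and 8.39 in PH. PH 3 was near MEF 2 while PH 1 and PH 2 were nearer the lines. The lines fell against MEF by -4.47 ± 0.65 (adjusted p = 0.00552, limma). The difference of PH from MEF was -2.44 ± 0.65 (adjusted p = 0.0703) and passed without PH 3 (-3.12, adjusted p = 0.0158) and after both other scalings. With the mean of the probe sets of Xaf1 in place of the one used, this difference turned to 0.80 (adjusted p = 0.527). Among the remaining effectors, Lgals3bp, a secreted binder of galectins, fell in the lines by -3.30 ± 0.74 against MEF (adjusted p = 0.0346) and by -2.90 ± 0.66 against PH (adjusted p = 0.0338). Both calls were lost without 4a3, 4a1CK, PH 1 or PH 2, and that against MEF also without MEF 1 (-2.19). Mx2, Ifi35 and Trim30a passed in no comparison, and their differences of the lines from MEF ran from -3.27 for Trim30a to -0.88 for Ifi35.

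The 3 sensors detect viral nucleic acid inside the cell. Ifih1 encodes MDA5, a sensor of long double-stranded RNA, and had 8.94 and 6.54 in MEF, 3.65, 5.06 and 4.53 in the lines, and 7.59, 8.06 and 7.60 in PH. The PH arrays lay between the MEF arrays and the lines lay below all of them. The lines fell by -3.33 ± 0.66 against MEF (adjusted p = 0.0217, limma) and by -3.34 ± 0.59 against PH (adjusted p = 0.0124). The call against MEF was lost without MEF 1 (-2.13) or 4a3 (-2.95), and that against PH without PH 2 (-3.18, adjusted p = 0.0521).

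Zbp1, a sensor of Z-form nucleic acid that can trigger cell death, had 8.61 and 4.72 in MEF, 4.48, 4.28 and 4.32 in the lines, and 5.14, 6.10 and 5.56 in PH. MEF 1 stood above all other arrays. Dhx58, a relative of MDA5 known as LGP2, had 7.73 and 4.87 in MEF, 4.04, 4.02 and 4.12 in the lines, and 5.47, 6.74 and 5.46 in PH. For both, the lines were below every other array but neither gene passed the test in any comparison.

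Of the transcription factors, Irf9 and Irf7 fell in the lines against MEF, and Irf9 also against PH. Irf9, the DNA-binding subunit of the type I complex, had 7.57 and 7.34 in MEF, 4.68, 4.87 and 4.80 in the lines, and 6.81, 7.11 and 7.90 in PH. It was the member with the closest MEF arrays, and the lines stood below both other groups. The differences were -2.67 ± 0.32 from MEF (adjusted p = 0.00221, limma) and -2.49 ± 0.29 from PH (adjusted p = 0.0018).

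Irf7, the factor that amplifies interferon production, had 8.42 and 5.74 in MEF, 3.84, 3.72 and 3.66 in the lines, and 6.06, 6.86 and 4.85 in PH. The lines fell against MEF by -3.34 ± 0.77 (adjusted p = 0.0390, limma), a call that was lost without MEF 1 (-2.00), PH 1 or any of the lines. Stat2 had 8.33 and 5.63 in MEF, 5.58 in 4a3, 4.14 in 4a3CK, 5.20 in 4a1CK, and 7.08, 7.56 and 6.40 in PH, and 4a3 was level with MEF 2. Its difference of the lines from PH was -2.04 ± 0.68 (adjusted p = 0.116, limma).

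Irf1, the factor that relays interferon gamma to its targets, did not follow the other members. It had 8.00 and 6.25 in MEF, 7.43, 7.93 and 7.19 in the lines, and 7.43, 7.55 and 8.26 in PH. The 3 groups overlapped, with MEF 2 the lowest array. The difference of the lines was 0.40 ± 0.51 from MEF (adjusted p = 0.695, limma) and -0.23 ± 0.45 from PH (adjusted p = 0.876).

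**Figure D4:**
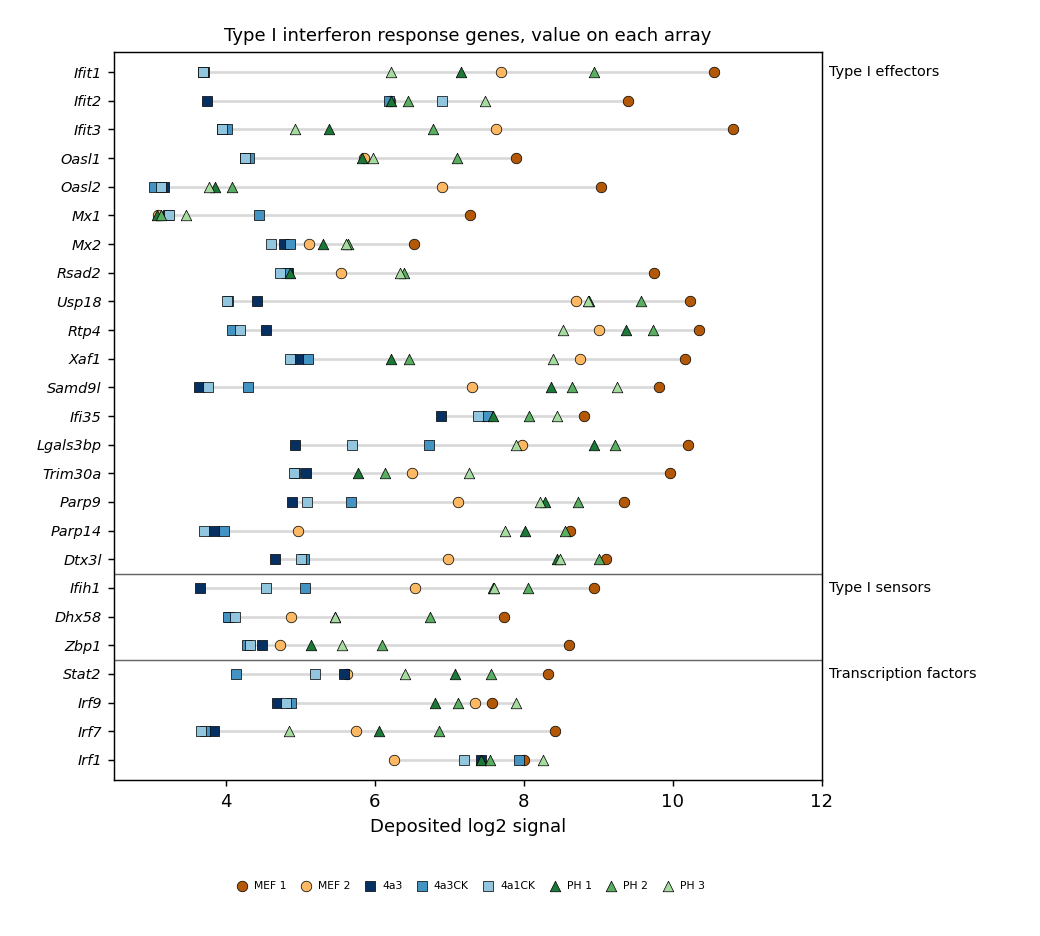
Log2 signal (horizontal axis) of the type I effectors, sensors and transcription factors (vertical axis, 1 line per gene), with 1 marker for each of the 8 arrays. The 3 lines sit at the left for nearly all genes, MEF 1 lies to the right of MEF 2 throughout, and the groups overlap for Irf1.

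The GTPases induced by interferon gamma attack the vacuoles of intracellular parasites and bacteria. Of the 8, 4 fell in the lines against MEF (median -3.42) and 5 against PH (median -3.69), and 0 passed between PH and MEF (median 0.78). Their class mean was 9.80 in MEF 1, 5.86 in MEF 2, 4.16 to 4.30 in the lines and 8.03 to 8.61 in PH. For 5 of the 8, every PH array was at least 1 above MEF 2, as for 12 of the 39 members, where 5.39% of all genes were.

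Iigp1, an immunity-related GTPase, had 10.71 in MEF 1 and 4.99 in MEF 2, 4.21, 4.05 and 4.09 in the lines, and 10.51, 10.75 and 10.47 in PH. MEF 1 and PH were alike, and MEF 2 was nearer the lines. The lines fell by -6.46 ± 1.15 against PH (adjusted p = 0.0128, limma), and the difference was as large without PH 1, where the call was lost (-6.49, adjusted p = 0.05). The difference from MEF was -3.73 ± 1.29 (adjusted p = 0.141), and without MEF 2 it was -6.60 (adjusted p = 7.1e-05).

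Tgtp1, whose promoter is shown above, had 9.36 and 4.10 in MEF, 4.05, 4.00 and 3.84 in the lines, and 9.35, 9.69 and 8.99 in PH. MEF 2 was level with the lines and MEF 1 with PH. The lines fell by -5.38 ± 1.07 against PH (adjusted p = 0.0195, limma), a call that was lost without 4a3 (-5.43), PH 1 (-5.38) or PH 2 (-5.21). Tgtp1 has a near-identical copy, Tgtp2, and which of them the probe set measures is uncertain.

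Irgm2 and Igtp, which share the paired motifs and are neighbours on chromosome 11, followed the same order. Irgm2 had 8.98 and 5.52 in MEF, 3.99, 4.05 and 3.98 in the lines, and 8.33, 8.77 and 7.98 in PH. Igtp had 9.95 and 6.91 in MEF, 5.03, 4.99 and 5.14 in the lines, and 8.51, 8.92 and 8.12 in PH. In both, PH lay between the MEF arrays and the lines lay below. Against PH the lines fell by -4.35 ± 0.73 for Irgm2 (adjusted p = 0.00957, limma) and by -3.46 ± 0.65 for Igtp (adjusted p = 0.0154). The call of Igtp was lost without 4a3 (-3.45), PH 1 (-3.47) or PH 2 (-3.26). Igtp also fell against MEF by -3.37 ± 0.73 (adjusted p = 0.0301), which was lost without 4a3, 4a1CK, PH 1 or PH 2 (-3.42 to -3.36).

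Irgm1, a regulator that keeps the other immunity-related GTPases off the cell's own membranes, had 9.83 and 8.13 in MEF, 5.34, 6.06 and 5.16 in the lines, and 9.10, 9.32 and 9.88 in PH. Only the lines stood apart. They fell by -3.46 ± 0.51 against MEF (adjusted p = 0.00567, limma) and by -3.91 ± 0.45 against PH (adjusted p = 0.0018). Ifi47, another immunity-related GTPase, had 9.23 and 4.46 in MEF, 4.59, 4.62 and 4.51 in the lines, and 7.52, 8.13 and 8.42 in PH, and it passed in none of the comparisons over all arrays. Without either MEF array its difference of the lines from PH, -3.45, passed (adjusted p = 0.000488).

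The guanylate-binding proteins Gbp2 and Gbp3, whose genes lie near each other on chromosome 3, did not share the high PH level. Gbp2 had 10.36 and 6.31 in MEF, 3.14, 3.06 and 3.09 in the lines, and 5.86, 6.38 and 5.23 in PH. Gbp3 had 9.99 and 6.44 in MEF, 3.61, 3.59 and 3.51 in the lines, and 5.86, 6.91 and 5.15 in PH. PH was level with MEF 2 and not with MEF 1, and the lines were at the bottom of the scale. The lines fell against MEF by -5.24 ± 0.95 for Gbp2 (adjusted p = 0.0160, limma) and by -4.64 ± 0.90 for Gbp3 (adjusted p = 0.0203). The call of Gbp3 was lost without MEF 1 (-2.87, adjusted p = 0.053) or 4a3 (-4.66, adjusted p = 0.054). Against PH the differences were -2.73 ± 0.85 (adjusted p = 0.0964) and -2.40 ± 0.81 (adjusted p = 0.12), and both passed without MEF 1 or MEF 2, where the spread is estimated without the gap between those arrays.

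Cxcl9 and Cxcl10 are chemokines that draw activated T cells, and as a class they had the widest gap between the MEF arrays. Cxcl10 had 11.43 in MEF 1 and 6.81 in MEF 2, 3.26, 3.33 and 3.30 in the lines, and 4.44, 5.34 and 5.18 in PH. The 3 groups did not overlap. The lines fell against MEF by -5.82 ± 1.07 (adjusted p = 0.0162, limma). PH differed from MEF by -4.13 ± 1.07 (adjusted p = 0.062).

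Cxcl9 had 10.14 in MEF 1 and 4.20 in MEF 2, 4.09, 3.90 and 4.20 in the lines, and 4.61, 5.07 and 4.46 in PH. MEF 1 alone was high. The gene passed in none of the 3 comparisons, with a difference of the lines from MEF of -3.11 ± 1.34 (adjusted p = 0.234, limma).

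The antigen processing genes encode immunoproteasome subunits and a loading factor of MHC class I. Of the 4 measured, 2 fell in the lines against MEF (median -2.61) and 3 against PH (median -2.34). Psmb8 had 9.34 and 5.29 in MEF, 3.84, 4.46 and 4.29 in the lines, and 7.84, 8.11 and 8.44 in PH. MEF 2 was closer to the lines than to PH. The lines fell against PH by -3.93 ± 0.84 (adjusted p = 0.0265, limma), a call that was lost without 4a3, 4a1CK or any PH array (-4.08 to -3.75).

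Tapbp, encoding tapasin, which holds class I molecules at the peptide transporter, had 10.42 and 8.28 in MEF, 6.81, 7.11 and 6.79 in the lines, and 9.54, 9.69 and 8.94 in PH. On the probe set used, the lines were below both groups, by -2.45 ± 0.55 from MEF (adjusted p = 0.0351, limma) and -2.49 ± 0.49 from PH (adjusted p = 0.0189). Both calls were lost without 4a3, 4a1CK, PH 1 or PH 2, and that against MEF also without MEF 1 (-1.38). Both were also lost with the mean of the Tapbp probe sets. The second probe set of Tapbp gave 6.01 and 3.95 in MEF, 3.99, 4.02 and 3.93 in the lines, and 4.51, 4.69 and 4.87 in PH. There the lines were level with MEF 2 and below every PH array. Psmb10 had 9.15 and 7.71 in MEF, 4.94 in 4a3, 6.61 in 4a3CK, 5.45 in 4a1CK, and 8.05, 8.18 and 7.37 in PH. The lines fell by -2.77 ± 0.57 against MEF (adjusted p = 0.0251, limma) and by -2.20 ± 0.51 against PH (adjusted p = 0.0359). Both calls were lost without 4a3 or 4a1CK, that against MEF also without MEF 1 (-2.04), and that against PH also without PH 1 or PH 2.

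Psmb9, the remaining immunoproteasome subunit, was not low in the lines on the probe set used. It had 7.74 and 5.04 in MEF, 7.11, 6.48 and 6.74 in the lines, and 5.37, 5.88 and 7.0 in PH. The groups overlapped. Its second probe set gave 7.31 and 4.21 in MEF, 4.78, 5.02 and 5.04 in the lines, and 5.26, 5.47 and 7.40 in PH. There the lines lay below every PH array and between the MEF arrays, so the probe sets of this gene do not give 1 level for it. With the mean of its probe sets, the difference of the lines turned from 0.70 to -0.10 against PH and from 0.39 to -0.01 against MEF. In RefSeq, Psmb9 and Psmb8 alternate with the transporter genes Tap1 and Tap2 on chromosome 17 with 0 other protein-coding genes between them.

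**Figure D5:**
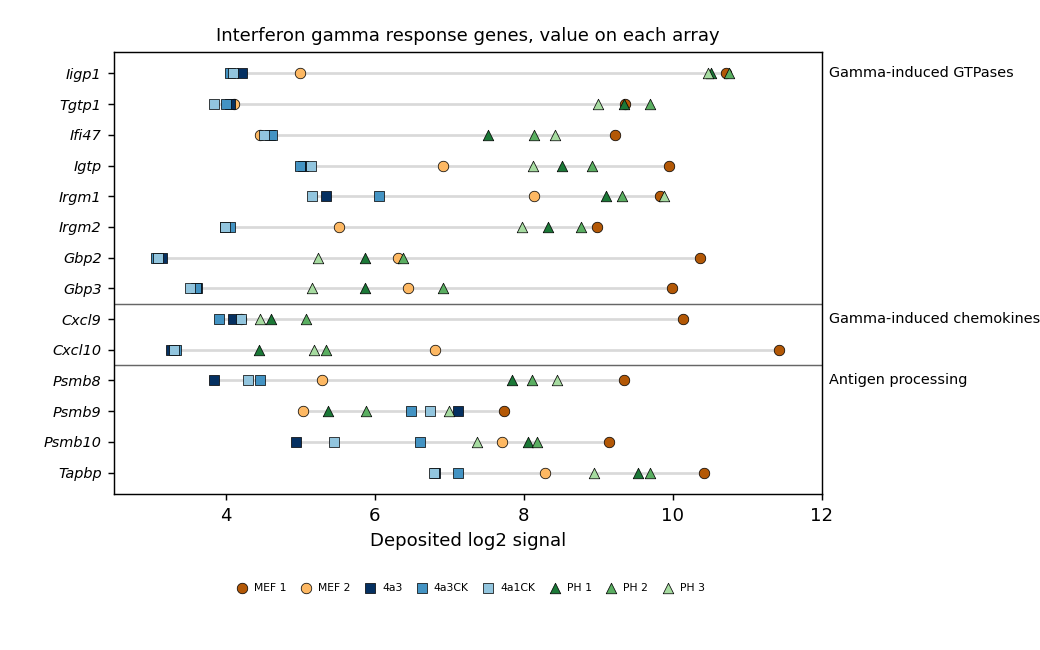
Log2 signal (horizontal axis) of the GTPases, chemokines and antigen processing genes (vertical axis, 1 line per gene), with 1 marker for each of the 8 arrays. Iigp1, Tgtp1, Ifi47 and Psmb8 are high in MEF 1 and PH and low in MEF 2 and the lines, while Cxcl9 is high in MEF 1 alone.

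The lines also differed from each other in single members. Between 4a3CK and 4a3, 6 members (15.4%) differed by at least 1, where 9.81% of all genes did. Ifit2 (2.45), Lgals3bp (1.81), Psmb10 (1.67), Ifih1 (1.41) and Mx1 (1.22) were higher in 4a3CK, and Stat2 (-1.44) was lower. Between 4a1CK and 4a3 only Ifit2 (2.56% of the members) differed by as much (3.16), where 5.89% of all genes did.

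Between 4a3CK and 4a1CK, which differ in the Foxa factor supplied, 4 members (10.3%) differed by at least 1, near the 10.7% of all genes that did. Mx1 (1.21), Psmb10 (1.16) and Lgals3bp (1.04) were higher in 4a3CK and Stat2 (-1.07) was lower. Each line has 1 array, so these differences have no test.

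PH 2 was above PH 1 for all 39 members. The difference ran from 0.05 to 1.79 with a median of 0.44, and it was at least 1 for 6 members, where 0.117% of all genes were higher by that much. It was at least 0.5 for 15 members, where 0.696% of all genes were. The 6 were Ifit1 (1.79), Rsad2 (1.53), Ifit3 (1.40), Oasl1 (1.27), Dhx58 (1.26) and Gbp3 (1.05). These arrays are otherwise the closest pair of the series, with an SD of differences over all genes of 0.159, against 0.570 for the MEF arrays. The difference has no replicate check.

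Genes above and below these targets in the pathway were counted by the same rule. Over all genes, 4.47% were lower and 1.98% higher in the lines against MEF, and 5.64% lower and 1.49% higher against PH. In PH against MEF, 3.37% of all genes were higher and 2.47% lower. Of 7 measured interferon genes, 0 passed in any comparison. Among 10 measured receptors, kinases and STAT factors, 1 rose in PH against MEF, 1 rose and 2 fell in the lines against MEF, and 4 fell in the lines against PH. Ifngr1, the ligand-binding chain of the gamma receptor, was higher in PH than in MEF by 2.93 ± 0.38 (adjusted p = 0.00272, limma). Jak1, the kinase shared by the receptors of both interferon types, fell in the lines by -1.48 ± 0.28 against MEF (adjusted p = 0.0185) and by -1.43 ± 0.25 against PH (adjusted p = 0.0118).

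Tyk2, the partner kinase of Jak1 at the type I receptor, rose in the lines against MEF by 1.36 (adjusted p = 0.0388, limma). Ifngr1 and Stat3 also fell in the lines against PH, and so did Ifnar1 (-1.16, adjusted p = 0.023), which was named after its value was seen.

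Of 13 measured genes of the pathway that induces interferon, 2 fell in the lines against MEF and 2 against PH. Of all genes, 4.47% and 5.64% did. Ddx58, which encodes the RNA sensor RIG-I, fell against MEF (-1.96, adjusted p = 0.0248, limma). Tlr3, a receptor for double-stranded RNA, fell against PH (-2.57, adjusted p = 0.0382), and the adaptor Myd88 fell against both. Of 11 genes listed as negative regulators, 2 fell in the lines against MEF, and 1, Isg20, rose and 1 fell against PH. Trex1, a nuclease of cytosolic DNA, fell against MEF (-2.08, adjusted p = 0.0384), and Adar, an editor of double-stranded RNA, fell against both.

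Isg20, an exonuclease of viral RNA, had 7.40 and 5.03 in MEF, 10.31, 7.68 and 9.34 in 4a3, 4a3CK and 4a1CK, and 5.05, 5.37 and 5.02 in PH. It was the only gene of these pathway lists that rose in the lines against PH, by 3.96 ± 0.73 (adjusted p = 0.0146, limma). All 3 lines were above the PH arrays by more than 1. They also lay above both MEF arrays, and the difference from MEF was 2.89 ± 0.82 (adjusted p = 0.0778, limma).

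Of 33 further type I response genes, 7 fell in the lines against MEF (median of the list -1.50) and 6 against PH. Of all genes, 4.47% and 5.64% did. Nmi, a partner of STAT factors, fell by -3.55 against MEF (adjusted p = 0.00824, limma) and -3.28 against PH (adjusted p = 0.00625). Ifitm3, which blocks viral entry, fell by -3.15 against MEF (adjusted p = 0.00261) and -2.11 against PH (adjusted p = 0.00919). Cmpk2, a mitochondrial nucleotide kinase, fell against MEF (-3.64, adjusted p = 0.0494), and Ifi27 fell against both groups.

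Of 11 further gamma response genes, only Gbp7 passed, with a fall in the lines against MEF (-2.76, adjusted p = 0.0496, limma), where 4.47% of all genes fell. Of 18 measured genes of MHC class I and its loading, H2-K1, a classical class I heavy chain, had 7.64 to 8.78 in the lines and 11.33 to 11.44 in PH. It fell in the lines against PH (-3.12, adjusted p = 0.0175, limma), as did Tapbpl (-1.13, adjusted p = 0.0482). H2-Q10, a class I gene of the liver, was higher in PH than in MEF (2.69, adjusted p = 0.00321) and in the lines than in MEF (1.55, adjusted p = 0.0422). The class I genes are close in sequence, so these values can include related genes.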

How the data were processed

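Each deposited number is the log2 signal of a probe set, which the authors computed with RMA in Partek per the submitters' processing notes (versions not given in the sources used here). They were used as deposited. Of 45141 probe sets, 104 were controls, 28898 carried 1 gene symbol, 551 several and 15588 none. Each of 17097 genes was read from its probe set of highest mean. Array medians differ, highest on PH 3, so each array minus its median and quantile normalization were tried. The 3 groups were fitted in 1 linear model with limma 3.58.1 (R 4.3.3), with Benjamini-Hochberg adjustment over all genes, and a call needed an adjusted p under 0.05 and a log2 difference of at least 1. The code was tested on simulated data. Tables and plots used Python 3.11.15 with pandas 2.3.3, numpy 2.4.6 and matplotlib 3.10.9. The members and lists were chosen with earlier results of these data known. Named in full were, per role class, up to 5 called members with the largest difference and up to 2 with the largest gap between the MEF arrays, and per further list up to 4 genes. Xaf1, Oasl1 and other members beyond that rule were described as members of their class. The MEF and PH arrays share the numbers 1 and 2, but same-numbered arrays did not deviate together, so they were not paired. Alternatives covered the choice of probe set, dim genes, scaling, the variance model, blocks and single arrays.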

Additional observations from a re-analysis of the deposited data

Results flagged for a closer look

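A signal stood out in a probe set that the comparisons do not use. The second probe set of Xaf1 averaged 3.94 more on the log2 scale in PH than on the higher MEF array. It had 3.53 and 3.33 in MEF, 4.15, 4.14 and 4.15 in the lines, 8.96 in PH 1, 9.35 in PH 2 and 4.10 in PH 3. The probe set used in the comparisons had 10.16 and 8.75 in MEF and 6.21, 6.46 and 8.39 in PH. The order of the arrays thus differs between the probe sets of this gene, and PH 3 goes with the fibroblasts and lines in the second one. The cause was not tested.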

How the results depend on the processing

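No difference that passed the test in the fit over all arrays changed direction under the alternatives. Differences that had not passed there did change direction in some. In PH against MEF, Iigp1 was 5.59 without MEF 1 and -0.14 without MEF 2, and Psmb8 was 2.84 and -1.21. For interferon-stimulated genes called, PH vs MEF, the count of 2 became 0 of 31 without probe sets that can bind several transcripts, where Oasl2 was not tested and Ifit3, PH vs MEF, stayed at -3.52 (adjusted p = 0.0509, limma, 4 members lower at an unadjusted p under 0.05), 6 with the order of submission as a block, 1 with PH 1 and PH 2 averaged and 1 at an adjusted p under 0.01, and lay between 1 and 10 with 1 array left out. For interferon-stimulated genes called, iHep vs MEF, the count of 21 became 10 in a fit of only these groups, 7 with the level of the bacterial controls as a block and 8 at an adjusted p under 0.01, and lay between 12 and 35 with 1 array left out. For interferon-stimulated genes called, iHep vs PH, the count of 18 became 11 with either of these blocks, 10 with PH 1 and PH 2 averaged and 8 at an adjusted p under 0.01, and lay between 9 and 27 with 1 array left out. With the replicate number as a block the counts were 2, 7 and 11. Under both other scalings and with the bacterial or the replicate block, the 2 members called between PH and MEF were Oasl2 and Xaf1, not Ifit3. The deviations of arrays with the same number correlated at -0.019 and -0.14, and with crossed pairing, added after seeing the data, the counts were 3, 12 and 18. The alternatives for PH 2 against PH 1 were also added after seeing the data and gave 5 to 6 members. For these blocks the cause was not tested, since each also takes up a degree of freedom. Signals of the lines near the bottom of the scale limit how far a difference from them can be measured.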

Other observations

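The 10 genes outside the list whose values over the 8 arrays lay closest to the mean of the 25 type I members were Parp11, Adamts7, Cmpk2, Gbp7, Eif2ak2, Aplp1, Daxx, Oas1g, Znfx1 and Spred3, with Pearson's r of 0.973 to 0.992. The points share the arrays and the gap between MEF 1 and MEF 2, so r is a description. Znfx1, an RNA helicase of the antiviral response, had a log2 signal of 8.06 in MEF 1, 5.38 in MEF 2, 4.05 to 4.19 in the lines and 6.47 to 6.91 in PH. Eif2ak2, the double-stranded RNA kinase PKR, had 8.20 and 6.47 in MEF, 4.98 to 5.57 in the lines and 6.50 to 7.25 in PH. Adamts7, a matrix protease, had 5.79 and 4.53 in MEF, 3.88 to 3.96 in the lines and 4.91 to 5.02 in PH.

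Among the genes with the largest excess in PH 2 over PH 1 were some that encode secreted liver proteins. Saa1 differed by 2.39, Saa4 by 2.00, Saa2 by 1.95 and Orm2 by 1.89 on the log2 scale, and Hamp, which encodes the iron hormone hepcidin, by 1.54. The fibrinogen genes Fga (10.75 on both arrays) and Fgb (11.83 on both) did not share the excess, and Serpina1a had 11.08 in PH 1 and 10.75 in PH 2. These genes were chosen after values were seen, and each array is 1 sample, so the differences have no test.

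Some response genes differed between the lines. Ifi205 had 8.01 in 4a1CK, 6.24 in 4a3CK and 4.31 in 4a3, against 10.16 and 6.35 in MEF and 4.03 to 4.24 in PH. Ifi204 had 6.97 in 4a1CK and no more than 3.09 in the other lines. Both encode proteins of the family of DNA sensors with a HIN domain, and both were chosen after their values were seen.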
